A study of Mus musculus with 8 samples.

Results

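The genes of MHC class I antigen presentation were measured in ovarian tumours of 8 mice. The 10 members are H2-K1, H2-D1, B2m, Tap1, Tap2, Tapbp, Psmb8, Psmb9, Psmb10 and Nlrc5. They were found on the array by gene name, and the rule sets no limit on measured values, but the set was proposed with earlier results of these data known. They are covered by 12 probes on 30 spots of each array, of 39429 probes and 43020 spots in all after control spots were set aside. All 12 member probes were well above background on all 8 arrays, and all 10 genes stayed among the 25529 genes tested.

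The tumours arose spontaneously in female mice of the C57BL/6J TgMISIIR-TAg line, in which the promoter of the type II receptor of Muellerian inhibiting substance (MISIIR, the gene Amhr2) drives the large T antigen of simian virus. All mice carried this transgene and none received a drug. The mice were wild type for Nedd9 in 1 group (Nedd9-WT, 4 tumours) and had a null genotype in the other (Nedd9-null, 4 tumours); NEDD9 is a scaffold protein of focal adhesions. The ages of the mice and the exons missing from the null allele are not given in the sources used here. The labels differ on tumour size: burdens below 2000 mm3 in one place, killing when that volume had been reached in another. Each genotype was hybridised on a slide of its own, so slide and genotype cannot be told apart in any comparison here.

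MHC class I molecules show short peptides from inside the cell to CD8+ T cells. The proteasome cuts proteins into peptides, the TAP transporter carries these into the endoplasmic reticulum, tapasin holds the transporter next to an empty class I molecule, and a loaded heavy chain leaves for the cell surface bound to beta-2-microglobulin. Interferons raise most of these genes, partly through the transactivator NLRC5, and tumours are known to lower them as a way of escaping T cells.

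NLRC5 acts through a conserved promoter module shared by the classical heavy chain genes and B2m, so these 3 promoters are shown first. RefSeq windows from 250 bases before to 50 after the start were at hand for 8 of the 10 members (build GRCm38.p6), and Tap2 and Nlrc5 had none. The stretches printed run 5′ to 3′ on the gene's strand and are B2m at chr2:122147542-122147646 on the plus strand, H2-K1 at chr17:34000351-34000465 on the minus strand and H2-D1 at chr17:35262916-35263030 on the plus strand. Capitals mark, in order, letters of the interferon regulatory factor core AANNGAAA and of the kB-like motif GGGANTNNC (either strand; the kB-like motif comes first in the heavy chains), then TGACG and ATTGG.
B2m: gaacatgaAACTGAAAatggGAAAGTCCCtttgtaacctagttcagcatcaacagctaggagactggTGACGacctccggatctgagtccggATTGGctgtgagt
H2-K1: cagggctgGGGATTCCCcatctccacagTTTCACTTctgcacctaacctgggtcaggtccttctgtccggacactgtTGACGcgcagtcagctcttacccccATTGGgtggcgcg
H2-D1: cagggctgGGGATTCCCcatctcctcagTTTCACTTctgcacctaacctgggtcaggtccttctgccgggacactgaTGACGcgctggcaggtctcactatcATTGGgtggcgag

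TGACG is the core of the X2 box and ATTGG is the reversed CCAAT box of this module. In all 3 promoters TGACG was followed on the same strand by 20 bases and ATTGG. That arrangement was present in 31 of 32851 promoter windows (0.0944%), among them H2-M3, a non-classical class I gene; the spacing was read from these promoters after they had been seen. The kB-like motif, searched on both strands, was found in 3 of the 8 member windows and in 14.0% of all windows; in the heavy chains the same letters match on both strands. AANNGAAA on either strand was present in 3 of 8 member windows and 23.9% of all. TGACG alone was present in 5 of 8 windows against 20.8%, and ATTGG alone in 6 of 8 against 37.4%. The windows of Tap1 and Psmb9, which are read in opposite directions, overlap by 275 bases and so are not independent. H2-K1 has 2 listed starts, and the stretch printed lies in the windows of both. A match describes letters and is not evidence of binding.

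Each level below is a processed signal on the log2 scale, set relative to the 75th percentile of its array, so a level above 0 is a signal brighter than that percentile. That percentile lay between 2418 and 3552 signal units, and 72.9% to 84.6% of probes were well above background. The Nedd9 probe separated the labels, at 0.84 to 1.85 in Nedd9-WT and -4.03 to -2.01 in Nedd9-null tumours (difference -4.51 ± 0.44 SE, limma adjusted p = 0.0281). Nedd9-null replicate 1 stood apart from its group. Over the genes tested, it correlated at 0.938 to 0.973 with Nedd9-WT tumours but 0.886 to 0.920 with Nedd9-null replicates 2, 3 and 4. The members and the counts over lists are therefore given with and without it. It was singled out from these same values for its likeness to Nedd9-WT tumours. Adjusted p-values and calls without it therefore describe the data and are not independent tests. With 8 arrays, 17 of 25529 genes passed a limma adjusted p of 0.05 (0.0666%), and without that array 4775 did (18.7%). With 8 arrays, 23.9% of all genes had an unadjusted limma p under 0.05. The counts over lists below are to be read against these shares.

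The classical heavy chains H2-K1 and H2-D1 bind the peptide and face the T cell receptor. The H2-K1 level in Nedd9-WT replicates 1 to 4 was 4.51, 2.35, 3.19 and 2.72, and in Nedd9-null replicates 1 to 4 it was 2.02, 6.35, 6.26 and 4.74. Nedd9-null replicates 2, 3 and 4 were above every Nedd9-WT tumour, while Nedd9-null replicate 1 was the lowest of all 8, so the groups overlap. In signal units H2-K1 ran from 16210.2 to 65227 in Nedd9-WT tumours, was 9834 in Nedd9-null replicate 1, and was 280478, 247769 and 95177 in the other Nedd9-null tumours.

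The difference for H2-K1 was 1.65 ± 0.98 SE (3.14-fold, adjusted p = 0.345, limma). Without Nedd9-null replicate 1, an array singled out from these same values, it was 2.59 ± 0.61 SE (6.03-fold, limma adjusted p = 0.0272). The probe A_51_P198434 is printed on 10 spots of each array, whose log2 values had an SD of 0.04 to 0.07 within an array, against an SD of 0.94 among Nedd9-WT and 2.02 among Nedd9-null tumours. A second probe, A_55_P2049647, gave nearly the same differences: 1.62 ± 0.91 SE with all arrays and 2.48 ± 0.59 SE without the first Nedd9-null tumour. The repeated spots measure variation within 1 hybridisation only, so the spread between tumours and that between labellings or arrays cannot be told apart.

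H2-D1 followed the same order apart from the lowest places. Its level was 3.58, 1.58, 2.76 and 2.04 in Nedd9-WT replicates 1 to 4 and 1.64, 5.32, 5.24 and 3.93 in the Nedd9-null tumours. Nedd9-null replicate 1 lay within the Nedd9-WT range and the other Nedd9-null tumours above it. The difference was 1.54 ± 0.85 SE (2.91-fold, adjusted p = 0.310), and without that tumour 2.34 ± 0.55 SE (5.07-fold, adjusted p = 0.0276).

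B2m encodes beta-2-microglobulin, the light chain without which heavy chains do not reach the surface. Its level was 4.39, 3.09, 4.02 and 3.25 in Nedd9-WT replicates 1 to 4 and 3.14, 5.68, 5.69 and 4.18 in Nedd9-null tumours. Nedd9-null replicates 2 and 3 were the highest, and Nedd9-null replicate 4 fell below Nedd9-WT replicate 1. The difference of 0.99 ± 0.62 SE did not pass (adjusted p = 0.372), nor did that of 1.50 ± 0.49 SE without Nedd9-null replicate 1 (adjusted p = 0.0775).

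**Figure D1:**
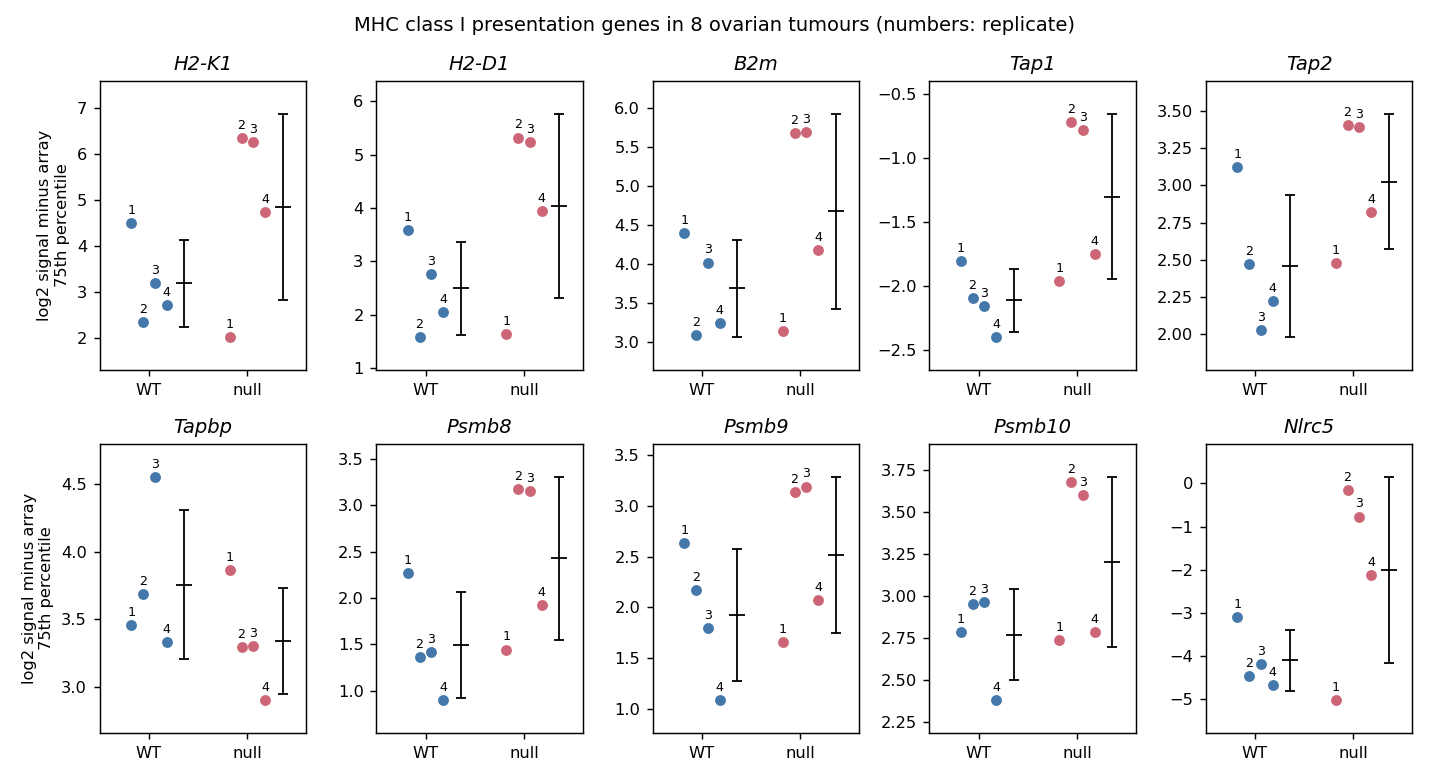
Level of each member (log2 signal minus the 75th percentile of the array) in the 4 Nedd9-WT and 4 Nedd9-null tumours, 1 panel per gene with its own axis; points carry the replicate number, and the bar is the mean with 1 SD (n = 4). Nedd9-null replicates 2 and 3 are the 2 highest tumours in 9 of 10 panels, and Nedd9-null replicate 1 lies within or below the Nedd9-WT values in all 10.

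Tap1 and Tap2 form the transporter that pumps peptides into the endoplasmic reticulum. The Tap1 level was -1.80, -2.09, -2.16 and -2.40 in Nedd9-WT replicates 1 to 4 and -1.96, -0.72, -0.78 and -1.75 in Nedd9-null tumours. Nedd9-null replicate 4 was only just above Nedd9-WT replicate 1, and Nedd9-null replicate 1 was below it. Tap1 had the smallest unadjusted p of the members, 0.0385, with a difference of 0.81 ± 0.32 SE (1.75-fold, adjusted p = 0.185). Without Nedd9-null replicate 1 the difference was 1.03 ± 0.29 SE (adjusted p = 0.0528). Tap1 too is printed on 10 spots, with an SD of 0.03 to 0.07 within an array.

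The Tap2 level was 3.12, 2.47, 2.03 and 2.22 in Nedd9-WT replicates 1 to 4 and 2.48, 3.40, 3.39 and 2.82 in Nedd9-null tumours. Nedd9-WT replicate 1 came after Nedd9-null replicates 2 and 3 and before Nedd9-null replicate 4. The difference was 0.56 ± 0.31 SE (adjusted p = 0.314) and 0.74 ± 0.30 SE without Nedd9-null replicate 1 (adjusted p = 0.139).

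Tapbp encodes tapasin, the bridge between transporter and class I molecule. It was the member with the opposite sign, at 3.45, 3.68, 4.55 and 3.33 in Nedd9-WT replicates 1 to 4 and 3.86, 3.29, 3.30 and 2.90 in Nedd9-null tumours. Nedd9-WT replicate 3 was the highest and Nedd9-null replicates 2, 3 and 4 were the lowest. The difference of -0.42 ± 0.32 SE did not pass (adjusted p = 0.473), and without Nedd9-null replicate 1 it was -0.59 ± 0.32 SE (adjusted p = 0.250). Without Nedd9-WT replicate 3 it was -0.15 (adjusted p = 0.779).

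Psmb8, Psmb9 and Psmb10 encode the catalytic subunits that replace those of the constitutive proteasome in the interferon-induced immunoproteasome. The Psmb8 level was 2.27, 1.37, 1.42 and 0.91 in Nedd9-WT replicates 1 to 4 and 1.44, 3.18, 3.15 and 1.93 in Nedd9-null tumours. The difference was 0.93 ± 0.47 SE (1.91-fold, adjusted p = 0.271), and 1.26 ± 0.43 SE without Nedd9-null replicate 1 (adjusted p = 0.0866). Psmb8 was high in Nedd9-null replicates 2 and 3, and the next tumour was Nedd9-WT replicate 1.

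Psmb9 read 2.64, 2.17, 1.79 and 1.09 in Nedd9-WT replicates 1 to 4 and 1.66, 3.14, 3.19 and 2.07 in Nedd9-null tumours. Its difference was 0.59 ± 0.46 SE (adjusted p = 0.473), with 0.88 ± 0.44 SE (adjusted p = 0.213) when Nedd9-null replicate 1 was left out. Leaving out 1 of 3 other tumours moved the Psmb9 difference by over 1.5 times, to 0.32 (Nedd9-WT replicate 4 dropped), 0.38 (Nedd9-null replicate 2 dropped) or 0.37 (Nedd9-null replicate 3 dropped). Psmb10 read 2.79, 2.95, 2.96 and 2.39 against 2.74, 3.68, 3.60 and 2.79, a difference of 0.43 ± 0.28 SE (adjusted p = 0.388), or 0.58 ± 0.27 SE (adjusted p = 0.190) without Nedd9-null replicate 1. The Psmb10 difference was 0.27 without Nedd9-null replicate 2, and 0.24 with the median of each array as the scale. In both genes Nedd9-null replicate 4 lay among the Nedd9-WT tumours, unlike its place for the heavy chains.

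Each immunosubunit takes the place of a constitutive one, Psmb8 of Psmb5, Psmb9 of Psmb6 and Psmb10 of Psmb7. Within each tumour the log2 ratio of the pair, centred on the Nedd9-WT mean, gives a measure free of the array scale. Psmb8 over Psmb5 was -0.65, 0.86, 0.59 and -0.52 in Nedd9-null replicates 1 to 4, a mean of 0.07 ± 0.76 (SD, n = 4; exact permutation p = 0.886, two-sided), and ran from -0.43 to 0.43 in Nedd9-WT tumours. Psmb5 itself was higher in every Nedd9-null tumour than in any Nedd9-WT tumour (difference 0.87 ± 0.19 SE, limma adjusted p = 0.0836), as were 7.16% of all genes. Psmb9 over Psmb6 averaged 0.49 ± 0.76 (SD, n = 4; exact permutation p = 0.314) and Psmb10 over Psmb7 0.40 ± 0.49 (SD, n = 4; exact permutation p = 0.286). Adjusted over the 3 pairs, the permutation p was 0.886, 0.471 and 0.471, and the smallest raw p that 8 arrays allow is 0.0286.

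Nlrc5 encodes the transactivator of class I genes and had the largest difference of the 10 members. The level of the brighter probe, A_55_P2016034, was -3.09, -4.46, -4.18 and -4.67 in Nedd9-WT replicates 1 to 4 and -5.01, -0.16, -0.77 and -2.11 in Nedd9-null tumours. Nedd9-null replicate 1 was the lowest of all 8 and the other Nedd9-null tumours were the 3 highest. In signal units this is 116 to 336 in Nedd9-WT tumours, 75.2 in Nedd9-null replicate 1, and 3090.0, 1906 and 821 in the others.

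The Nlrc5 difference was 2.09 ± 1.00 SE (4.26-fold, adjusted p = 0.248), and 3.09 ± 0.55 SE without Nedd9-null replicate 1 (8.51-fold, adjusted p = 0.00957). The 2 Nlrc5 probes disagreed. A_66_P113043, which was near the dim end of the array (40.7 to 89.1 signal units), differed by 0.52 ± 0.26 SE and was highest in Nedd9-null replicate 1. Without that tumour its difference was 0.35 ± 0.23 SE (adjusted p = 0.342 over probes). The bright probe lies at chr8:97051105-97051164 and the dim one at chr8:97030478-97030624, both on the plus strand of mm9, so they read separate stretches of the transcript. The difference of Nlrc5 rests on the brighter probe.

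With all 8 arrays, 0 of 10 member genes and 0 of 12 member probes passed the adjusted threshold in limma, where 0.0666% of all genes and 0.0535% of all probes did. At an unadjusted p under 0.05 there was 1 member, Tap1, against 23.9% of all genes. The difference was above 0 for 9 of 10 members and for 52.2% of all genes; the member median was 0.87 and the median of all genes 0.03. No member had groups without overlap, compared with 7.16% of genes whose Nedd9-null values all lay above and 5.58% whose values all lay below the Nedd9-WT values.

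Without Nedd9-null replicate 1, 3 of 10 members passed, where 18.7% of all genes did; these were H2-K1, H2-D1 and Nlrc5, and each rose. By probe, 4 of 12 passed, against 19.4% of all probes; these were both H2-K1 probes, the H2-D1 probe and the brighter Nlrc5 probe. The median member difference was then 1.14, and that of all genes -0.07. With all 8 arrays weighted by limma, 4 members passed, these 3 and Tap1, where 23.5% of all genes did. The weights are computed from the spread of these same values around the genotype means, so these calls are not independent tests either. The weighted differences of H2-K1, H2-D1 and Nlrc5 were 2.56, 2.36 and 3.03, near those without Nedd9-null replicate 1. With equal weights, members were called only when Nedd9-null replicate 1 was left out: leaving out each of the other 7 arrays in turn gave 0 members called.

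**Figure D2:**
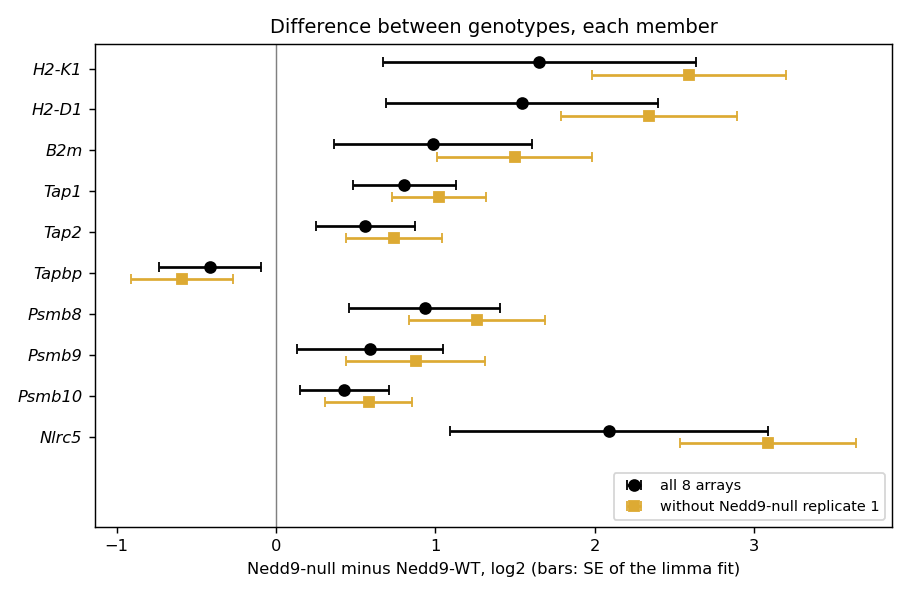
Nedd9-null minus Nedd9-WT difference of each member on the log2 scale, with the SE of the limma fit, from all 8 arrays (black circles) and without Nedd9-null replicate 1 (yellow squares). The differences run from -0.42 for Tapbp to 2.09 for Nlrc5 with all arrays and from -0.59 to 3.09 without that tumour, and the SE of Nlrc5 goes from 1.00 to 0.55.

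Most members put the tumours in a similar order. Nedd9-null replicates 2 and 3 were the 2 highest tumours for 9 of 10 members, the exception being Tapbp. Nedd9-WT replicate 1 was the highest Nedd9-WT tumour for 8 of 10, the others being Tapbp and Psmb10. Nedd9-null replicate 1 lay within the Nedd9-WT range for 8 members and below it for H2-K1 and Nlrc5. Relative to the Nedd9-WT mean, the number of members above it was 9, 4, 4 and 0 in Nedd9-WT replicates 1 to 4 and 3, 9, 9 and 9 in the Nedd9-null tumours.

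Nedd9-null replicates 2, 3 and 4 were all above every Nedd9-WT tumour for 4 of 10 members (H2-K1, H2-D1, Tap1 and Nlrc5), and for 16.4% of all genes. The SD was larger among Nedd9-null than among Nedd9-WT tumours for 8 of 10 members, and for 50.9% of all genes; Tap2 and Tapbp were the exceptions.

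**Figure D3:**
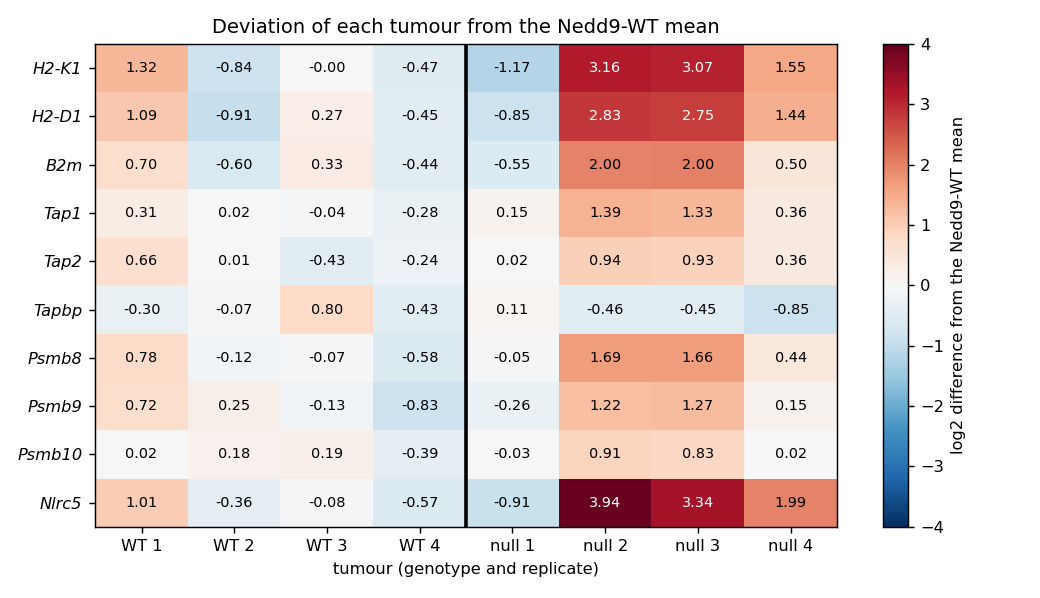
Log2 difference of each tumour from the Nedd9-WT mean of each member, in color and as a number, with the Nedd9-WT tumours left of the line and the Nedd9-null tumours right of it. Nedd9-null replicates 2 and 3 are above the Nedd9-WT mean in every row but Tapbp, with the highest value 3.94 for Nlrc5 in Nedd9-null replicate 2, while Nedd9-null replicate 1 reaches -1.17 for H2-K1.

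Other genes of the class I family were read from a list of 36, of which 26 were tested. Of these, 0 passed the test in either direction with 8 arrays (1 at an unadjusted p under 0.05), and 23 had a difference above 0, with a median of 0.55. Without Nedd9-null replicate 1, 9 rose and 0 fell. H2-Q7, a Qa-2 gene, read 3.46, 1.33, 2.53 and 1.88 in Nedd9-WT replicates 1 to 4 and 1.52, 5.41, 5.29 and 3.87 in Nedd9-null tumours. That is the order of the tumours seen for H2-D1.

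The H2-Q7 difference was 1.72 ± 0.90 SE (adjusted p = 0.282), and 2.56 without Nedd9-null replicate 1 (adjusted p = 0.0251). H2-T23 encodes Qa-1, which presents leader peptides of other class I chains to receptors of natural killer cells; its difference was 1.43 ± 0.84 SE (adjusted p = 0.341). H2-M3, whose promoter has the TGACG and ATTGG arrangement above, differed by 0.09 ± 0.29 SE (adjusted p = 0.878). The largest difference was that of H2-Q8, 2.31 ± 1.08 SE (adjusted p = 0.239), and H2-Bl differed by 1.75 ± 0.90 SE (adjusted p = 0.276). H2-Q1, with the smallest p of the list, differed by 1.36 ± 0.51 SE (adjusted p = 0.166) and was above background on 6 arrays. H2-Q10 is uncertain, since its probes differed by 1.32 and -1.05.

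Class I genes are near copies of each other, so a probe can bind the transcript of another family member. The closest pair between the heavy chain members and the other tested genes is printed with the shared run of 29 bases in capitals, the H2-K1 probe A_55_P2049647 first (chr17:34133984-34134043, minus strand of mm9) and the H2-T23 probe second (chr17:36167338-36167574, the span of its blocks in mm9).
H2-K1: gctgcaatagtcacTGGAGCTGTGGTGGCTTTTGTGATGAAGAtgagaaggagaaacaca
H2-T23: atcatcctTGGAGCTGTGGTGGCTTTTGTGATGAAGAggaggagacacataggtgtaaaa
The value of H2-T23 and that of this H2-K1 probe are therefore uncertain. Probes were compared with each other and not with whole transcripts, so binding of other family transcripts was not tested for any class I probe, those of H2-K1 and H2-D1 included.

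Peptide loading and trimming was followed over 12 genes, all tested, with 6 differences above 0 and a median of 0.02. No gene of this list passed with 8 arrays (1 higher and 2 lower at an unadjusted p under 0.05), and without Nedd9-null replicate 1 there were 2 that rose and 0 that fell. The chaperones of the loading complex barely differed: calreticulin (Calr) by -0.05 ± 0.25 SE, calnexin (Canx) by 0.08 ± 0.15 SE and ERp57 (Pdia3) by 0.09 ± 0.18 SE. Erap1, the aminopeptidase that trims peptides in the endoplasmic reticulum, differed by 0.37 ± 0.17 SE (adjusted p = 0.238).

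Tapbpl, the tapasin relative TAPBPR, read -1.02, -0.88, -0.90 and -0.89 in Nedd9-WT replicates 1 to 4 and -1.32, 0.16, -0.04 and -0.39 in Nedd9-null tumours. Its sign was opposite to that of Tapbp, with a difference of 0.53 ± 0.31 SE (adjusted p = 0.342) and 0.84 without Nedd9-null replicate 1 (adjusted p = 0.0174). The other gene that rose without that tumour was Thop1, a cytosolic peptidase that destroys class I peptides, at 1.27 (adjusted p = 0.0109; 1.00 ± 0.32 SE with all arrays, adjusted p = 0.128). Lnpep, an aminopeptidase of endosomes, was lower in every Nedd9-null tumour (-0.65 ± 0.22 SE, adjusted p = 0.138), and Npepps, a cytosolic aminopeptidase, differed by -0.59 ± 0.23 SE (adjusted p = 0.179). For 5.58% of all genes, all Nedd9-null values lay below all Nedd9-WT values.

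The constitutive proteasome was represented by 15 genes, all tested, of which 6 had a difference above 0; the median was -0.08. None passed with 8 arrays (1 at an unadjusted p under 0.05), and without Nedd9-null replicate 1 Psmb5 rose (0.95, adjusted p = 0.0134) and none fell. The partners of the other immunosubunits barely differed, Psmb6 by 0.10 ± 0.18 SE and Psmb7 by 0.03 ± 0.14 SE. Of the 4 proteasome activators, Psme1 and Psme2, the interferon-induced PA28 subunits that open the proteasome for class I peptides, were higher in every Nedd9-null tumour than in any Nedd9-WT tumour. The same was true of 7.16% of all genes.

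Psme1 read 3.30, 3.16, 2.91 and 2.79 in Nedd9-WT replicates 1 to 4 and 3.81, 4.08, 4.13 and 3.70 in Nedd9-null tumours (difference 0.89 ± 0.18 SE, adjusted p = 0.0810). Psme2 read 4.67, 4.25, 3.99 and 3.80 against 5.02, 5.03, 5.22 and 4.86 (difference 0.85 ± 0.21 SE, adjusted p = 0.0957). Here Nedd9-null replicate 1 lay with its own genotype, unlike its place for the members. Without it, both passed (limma adjusted p = 0.0185 and 0.0474). Psme1 and Psme2 share a locus with Irf9, a regulator given below, so these genes are not independent observations. The part of position was not tested. Psme3, the nuclear activator, differed by -0.99 ± 0.36 SE (adjusted p = 0.157), and 0 of the 4 activators passed with all arrays, with 2 higher and 1 lower at an unadjusted p under 0.05.

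Regulators of class I expression formed a list of 23 genes, all tested, with a median of -0.16 and 9 differences above 0. With 8 arrays 0 passed (2 higher and 6 lower at an unadjusted p under 0.05), and without Nedd9-null replicate 1 there were 3 that rose and 4 that fell. Irf9, the DNA-binding subunit of the complex that answers type I interferon, read 0.34, 0.16, -0.16 and 0.50 in Nedd9-WT replicates 1 to 4 and 1.05, 2.34, 2.42 and 1.64 in Nedd9-null tumours. All Nedd9-null values lay above all Nedd9-WT values, as they did for 7.16% of all genes. The Irf9 difference was 1.65 ± 0.33 SE (limma adjusted p = 0.0789), and 1.93 without Nedd9-null replicate 1 (adjusted p = 0.00295).

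Irf1, the factor that carries the interferon gamma signal to class I promoters, differed by -0.09 ± 0.18 SE (adjusted p = 0.810), and Irf2, its antagonist, by -0.43 ± 0.17 SE (adjusted p = 0.184). The kinase Jak2 differed by 0.96 ± 0.27 SE (adjusted p = 0.106), the kinase Jak1 by -0.76 ± 0.24 SE (adjusted p = 0.121) and the interferon gamma receptor chain Ifngr2 by -0.87 ± 0.28 SE (adjusted p = 0.131). Without Nedd9-null replicate 1, Jak2 rose (1.18, adjusted p = 0.00971) and Jak1 and Ifngr2 fell (-0.97, adjusted p = 0.00714, and -1.07, adjusted p = 0.0258). Rfx5, a subunit of the complex on the X box, differed by 0.14 ± 0.16 SE, and Ciita, the class II counterpart of Nlrc5, by 0.39 ± 0.18 SE (adjusted p = 0.243). The regulators did not share 1 direction.

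Interferon-stimulated genes that are not members formed a list of 26, all tested. Of them, 25 had a difference above 0, with a median of 1.72; 0 passed with 8 arrays (12 higher and 0 lower at an unadjusted p under 0.05), and 18 rose and 0 fell without Nedd9-null replicate 1. Ifit1, which binds foreign RNA, read -3.46, -5.31, -3.44 and -5.15 in Nedd9-WT replicates 1 to 4 and -3.74, 0.92, 0.60 and -1.33 in Nedd9-null tumours (difference 3.45 ± 1.05 SE, adjusted p = 0.117). Nedd9-null replicates 2, 3 and 4 were again above every Nedd9-WT tumour and replicate 1 was among them. Ifit2 differed by 2.14 ± 0.63 SE (adjusted p = 0.113), the GTPase Igtp by 1.44 ± 0.43 SE (adjusted p = 0.114) and the RNA sensor Ifih1 by 1.44 ± 0.46 SE (adjusted p = 0.125).

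The mean of the list over its genes, relative to the Nedd9-WT mean, was 0.33, -0.74, 0.46 and -0.05 in Nedd9-WT replicates 1 to 4 and -0.23, 3.03, 2.69 and 1.45 in Nedd9-null tumours. The same mean over the 10 members was 0.63, -0.24, 0.08 and -0.47 and then -0.35, 1.76, 1.67 and 0.60. In both, Nedd9-null replicate 2 was highest, replicate 3 next and replicate 4 after it among the Nedd9-null tumours, but for the members Nedd9-WT replicate 1 was above Nedd9-null replicate 4.

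**Figure D4:**
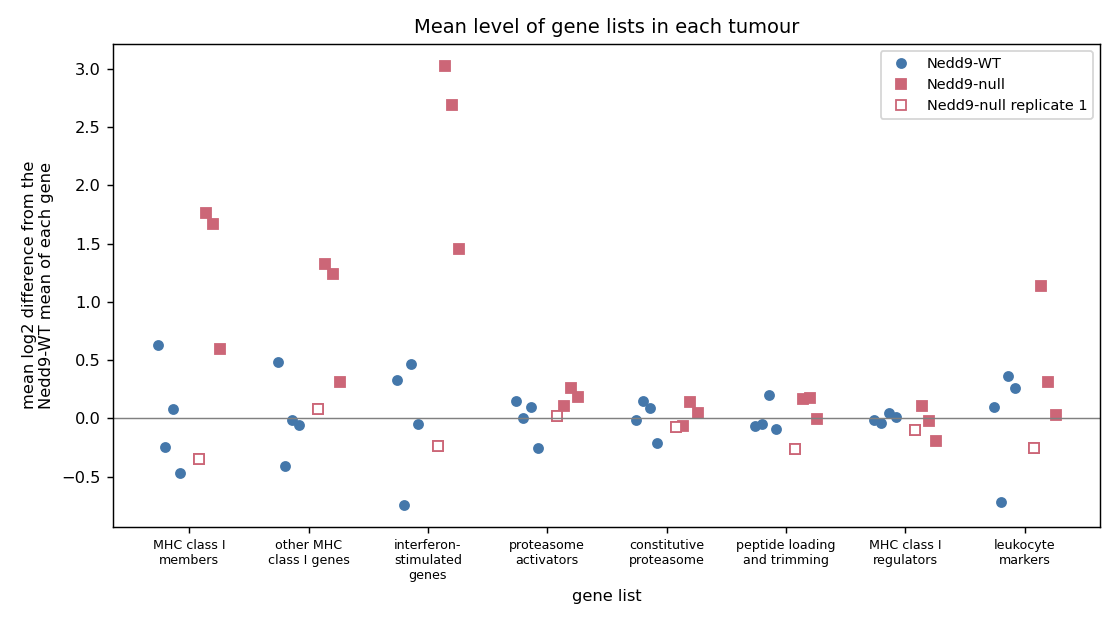
Deviation from the Nedd9-WT mean on the log2 scale, averaged over the genes of each list, 1 point per tumour (blue circles Nedd9-WT, red squares Nedd9-null, open square Nedd9-null replicate 1). Nedd9-null replicates 2 and 3 stand at 1.76 and 1.67 for the members and 3.03 and 2.69 for the interferon-stimulated genes. All 8 tumours lie between -0.26 and 0.26 for the proteasome, activator, loading and regulator lists. The means of these lists average genes of both signs, with differences from -0.99 to 0.89 among the activators and from -0.87 to 1.65 among the regulators.

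In tumour tissue a change in the number of cells of a type and a change in RNA per cell cannot be told apart, and leukocytes have high class I levels, so markers of other cell types are given beside the members. Of 29 leukocyte markers 25 were tested, and Ifng, Ncr1, Klrk1 and Xcr1 were not well above background on enough arrays. None passed with 8 arrays (1 at an unadjusted limma p under 0.05) or without Nedd9-null replicate 1. With 8 arrays the markers had a median difference of 0.10, and 16 of 25 were above 0. Without Nedd9-null replicate 1 the markers had a median difference of 0.26, and 20 of 25 were above 0. Their mean ran from -0.72 to 0.36 in Nedd9-WT and from -0.26 to 1.14 in Nedd9-null tumours, highest in Nedd9-null replicate 2. Nedd9-null replicate 3, with nearly the same class I values as replicate 2, had a mean of 0.31.

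Ptprc, the pan-leukocyte antigen CD45, differed by 0.07 ± 0.51 SE (adjusted p = 0.950). Of the T cell and killer cell markers, those with the smallest p were dim. Cd8a differed by 0.85 ± 0.34 SE (adjusted p = 0.182), Cd3g by 1.47 ± 0.67 SE (adjusted p = 0.228), Cd3d by 1.18 ± 0.61 SE (adjusted p = 0.280) and Gzmb by 1.09 ± 0.66 SE (adjusted p = 0.359). The other 5 tested, Cd3e, Cd4, Cd8b1, Prf1 and Gzma, differed by 0.17, -0.01, -0.09, 0.01 and 0.19. Cd3e and Cd4 were brighter, with means of -0.87 and -0.34 in Nedd9-null tumours. Cd3e hardly varied, between -1.10 and -0.76 over all 8 tumours, and whether its probe reads T cell RNA was not tested. Cd3d was -4.27 and -4.44 in Nedd9-null replicates 2 and 3 and at most -5.36 in the other tumours. Cd3g and Gzmb were also highest in replicates 2 and 3, the tumours with the highest class I levels. Cd8a was instead highest in Nedd9-null replicate 1, the tumour with the lowest H2-K1 level, at -5.65 against -6.31 and -6.02 in replicates 2 and 3. Cd3d and Gzmb were well above background on 7 arrays, Cd8a on 5 and Cd3g on 4. The part of leukocytes in the class I values was not tested.

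Markers of epithelium and of the ovary and oviduct also differed between the tumours. The 12 ciliated oviduct markers had a median difference of 4.23, with means of 1.44, 5.27, 5.93 and 5.84 in Nedd9-null replicates 1 to 4 and -0.57 to 1.47 in Nedd9-WT tumours, the highest in Nedd9-WT replicate 1. The 15 epithelial markers had a median of 0.98, with means of -0.36, 1.76, 1.63 and 0.91 in Nedd9-null replicates 1 to 4, against -0.34 to 0.45 in the other group. The 13 steroidogenic and follicle markers tested had a median of -2.61 and means of -0.55, -2.50, -4.50 and -4.63 against -0.46 to 0.45. Endothelial markers had a median of -0.74 and fibroblast markers 0.00, over 10 genes each. None of these genes passed with 8 arrays. Without Nedd9-null replicate 1, 11 of 12 ciliated and 6 of 15 epithelial markers rose and none of them fell. Of 13 steroidogenic and follicle markers 7 fell, 1 of 10 endothelial markers fell, and of 10 fibroblast markers 1 rose and 1 fell. At that setting 18.7% of all 25529 genes were called, 2637 higher and 2138 lower. Markers of the labelled ovarian tissue were thus low in Nedd9-null replicates 2, 3 and 4, and the part of these cell types in the class I values was not tested.

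Outside all lists, the genes nearest to the mean centred profile of the members were found by the root mean square difference over the 8 tumours. The 3 nearest were Ddx58 (0.196), the RIG-I sensor of viral RNA, Xaf1 (0.235), an interferon-induced partner of XIAP and the unnamed probe A_55_P2102182 (0.245). Ddx58 differed by 0.71 ± 0.46 SE (adjusted p = 0.384) and Xaf1 by 1.00 ± 0.45 SE (adjusted p = 0.225). None of the 3 passed the test.

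Most members are neighbours in the genome. The probes of 7 members lie on chromosome 17 in the file coordinates (mm9), in the major histocompatibility complex: Tapbp, H2-K1, Psmb9, Tap1, Psmb8, Tap2 and H2-D1 from 34065963 to 35403945. B2m is on chromosome 2, and Psmb10 and Nlrc5 are on chromosome 8. Tapbp (-0.42) is next to H2-K1 (1.65) among the member probes, and B2m (0.99) and Nlrc5 (2.09) lie outside the complex. None of these differences passed with all arrays, and whether they go with position was not tested. Whether a probe falls in a coding exon or a UTR was not analysed here.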

How the data were processed

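RNA of 8 ovarian tumours was measured on 1-colour Agilent mouse arrays, 4 of each genotype, with groups and replicate numbers from the sample titles; the labels give 4 mice per genotype. Per the labels' protocols, 500 ng of total RNA was amplified and labelled.

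The deposited scanner files hold intensity values extracted with Agilent Feature Extraction 9.5.3, background-subtracted and detrended within the array but not scaled between arrays, per the file headers. The table of log2 values that the authors deposited has equal medians on all arrays, as after normalization between arrays; its background step is not given in the sources used here. It served as an alternative.

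Control spots and spots flagged as outliers (194 to 292 per array) were left out, saturated spots (15 to 42, none on a member probe) stayed in, and repeated spots of one probe were averaged. Signals were put on the log2 scale and centred on each array's 75th percentile over probes. Probes well above background on 3 of 4 arrays of a genotype were kept, and the kept probe with the highest mean stood for its gene. Genotypes were compared with limma 3.58.1 (lmFit, eBayes; R 4.3.3, with the data.table package, version 1.17.8), two-sided, with Benjamini-Hochberg adjustment over all genes or probes and a threshold of 0.05. The fit was tested on simulated data. The replicate numbers follow the position on the slide, and same-numbered arrays did not deviate together (correlations -0.23 to -0.04), so the samples were not treated as pairs. Gene names of non-members were updated through a RefSeq table (GRCm38.p6).

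The members and gene lists were chosen with earlier results of these data known. Named were all members, up to 4 genes of smallest p per list, the listed genes that act directly on class I, Nedd9, and up to 4 nearest genes outside the lists; some of these are not reported here. Ptprc, Cd3e, Cd4, Cd8b1, Prf1 and Gzma lie outside this rule and were named after their values were seen. Marker lists of other cell types are given by counts, medians and means. The closing section gives the effect of other background correction, scaling, filters, probe choice, tests and left-out arrays. The number of arrays limits the precision.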

Additional observations from a re-analysis of the deposited data

Results flagged for a closer look

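For each group of 4 tumours, the gap between the most distant tumour and its neighbour was divided by the range of the group (Dixon's ratio), for the named genes, a few further leukocyte markers and the list means. Of 184 such groups, 10 passed the critical value of Dixon's test, which chance alone passes in about 5% of groups. No member of the class I set was among them.

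In Nedd9-null tumours, replicate 1 stood apart for Rfx5 (ratio 0.846; -4.94 against -5.27 to -5.22), for the cilium genes Dynlrb2 (0.837; -0.69 against 3.97 to 4.88) and Dnali1 (0.891; -2.83 against 2.58 to 3.24), and for the mean of the ciliated oviduct markers (0.852; 1.44 against 5.27 to 5.93). In Nedd9-WT tumours, replicate 1 stood apart for Dnali1 (0.904; -2.21 against -7.39 to -6.90) and for the mean of the ciliated oviduct markers (0.895; 1.47 against -0.57 to -0.35). Nedd9-WT replicate 2 was low for Cd8a (0.906; -7.75 against -6.93 to -6.85), a dim probe. Nedd9-WT replicate 3 was high for Psme3 (0.844; 0.84 against -0.47 to -0.26), Inhbb (0.845; 4.08 against 2.33 to 2.60) and the mean of the peptide loading and trimming genes (0.863; 0.20 against -0.09 to -0.05).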

How the results depend on the processing

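No member changed sign under any of the 19 alternatives per member. The background filters, the plain equal-variance test and the replicate block could not change a member difference, so the sign was fixed there. Averaging probes likewise could not change a member with 1 probe. Over the alternatives, 183 member values kept their side of the threshold and 7 crossed to pass it. Of these, H2-K1, H2-D1 and Nlrc5 passed without Nedd9-null replicate 1 and, joined by Tap1 (1.04, adjusted p = 0.0477), when limma weighted the arrays, which gave 4 members and 5987 genes in all. Both settings were derived from these same values. Over all alternatives the difference ran from 1.15 to 2.59 for H2-K1, from 1.31 to 3.09 for Nlrc5 and from -0.61 to -0.15 for Tapbp, with adjusted p from 0.0272 to 0.619, from 0.00957 to 0.492 and from 0.226 to 0.779. The lowest Nlrc5 value came from averaging its 2 probes. B2m was 0.65 without Nedd9-null replicate 2 and 0.65 without replicate 3, Tap2 was 0.37 with the median as the scale, and Tapbp was -0.15 without Nedd9-WT replicate 3 and -0.27 without Nedd9-null replicate 4.

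The count of genes called, 17 (15 higher, 2 lower), was 4 with the median as the scale (2 higher, 2 lower), 4 after quantile normalization (3 higher, 1 lower), 7 when probes had to be above background on all 8 arrays and 0 by a plain equal-variance test. Leaving out arrays gave 0 to 4775 genes, 0 to 3 members and 0 to 4 member probes, with 42 genes when Nedd9-WT replicate 1 was dropped, 2 when Nedd9-null replicate 4 was, 4775 when Nedd9-null replicate 1 was and 0 for each of the others. Scaling to the median moved the median difference of all genes from 0.03 to -0.16. With the replicate number as a block, 0 genes and 0 members were called; no array correlated best with its own number, so this pairing has no basis in the data. The cause of these changes was not tested beyond what each setting leaves out.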
